A study of Mus musculus with 6 samples.

Results

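A minority of CD8+ T cells carries transcripts that are better known from natural killer (NK) cells. Here 111 cells with such transcripts or Cx3cr1 were taken from 4497 CD8+ cells among 12818 T cells sorted from mouse melanomas. Of the 111, 68 were taken for Cx3cr1 alone, which is not an NK receptor gene. All 111 were selected on their own counts of unique molecular identifiers (UMIs, the tags that count captured RNA molecules). A cell was chosen by at least 1 UMI of Cd8a or Cd8b1, none of Cd4 or Foxp3, at least 1 of Klrb1c, Tyrobp or Cx3cr1, and none of Pdcd1, Mki67 and Top2a. The levels of these 10 genes are therefore a property of the selection and not a result.

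The cells came from Foxp3-EGFP-DTR mice, which carry a diphtheria toxin receptor and a green fluorescent protein under the Foxp3 gene, so that diphtheria toxin (DTx) removes Foxp3+ regulatory T (Treg) cells. All mice carried subcutaneous B16-F10 tumors, a transplantable melanoma line of C57BL/6 origin, and received DTx or PBS (3 samples each). TCRβ+ cells were sorted, so the T cell receptor on the surface was a condition of entry, and 5′ single-cell libraries were prepared. The 6 libraries of the deposited table are told apart only by barcode suffix and 0 of them could be tied to a treatment, so libraries are described side by side, no PBS and DTx groups were compared, and no p-value was computed.

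NK receptors of the Klr families are lectin-like proteins that either restrain killing through inhibitory tails or trigger it. Many of the triggering receptors have no signaling tail of their own and depend on small adaptors: Tyrobp encodes DAP12 and Fcer1g encodes the common γ chain of Fc receptors, both of which carry activation motifs, while Hcst encodes DAP10. Klrb1c encodes NK1.1, the receptor by which NK and NKT cells of C57BL/6 mice are usually stained. Cx3cr1 is not an NK receptor but the receptor for fractalkine, and on CD8+ T cells it is known as a marker of effector differentiation.

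The 3 entry genes were seldom found together. Of the 111 cells, 109 held only 1 of the 3 genes. Cx3cr1 was the entry gene of 68 cells, Tyrobp of 21 and Klrb1c of 24, with 2 cells holding both Tyrobp and Klrb1c and none holding Cx3cr1 with either. In most, the call rested on a single molecule: 94 cells had exactly 1 UMI over the 3 genes, 14 had 2 and 3 had more, the highest being 7 UMIs of Cx3cr1. At the other edge of the rule, 85 CD8+ cells were set aside although they held one of the 3 genes, because they also held Pdcd1 (58 cells), Mki67 (26 cells) or Top2a (31 cells), 35 of them through 1 UMI only. The 68 cells with Cx3cr1 and the 43 cells with Tyrobp or Klrb1c are described apart where they differ.

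The lack of cells with Cx3cr1 and a second entry gene is within what rare, singly detected genes give. Among the 3311 CD8+ cells without Pdcd1, Mki67 and Top2a, 0.632 cells with Tyrobp and Cx3cr1 and 0.783 with Klrb1c and Cx3cr1 were expected if the genes fell independently within each library, and the exact 95% Poisson interval of a count of 0 reaches 3.69. Over all 4497 CD8+ cells, Klrb1c and Cx3cr1 shared 5 cells where 2.29 were expected (1.62 to 11.7). Other pairs lay above what was expected. In the same 4497 cells, Tyrobp and Klrb1c shared 5 cells where 0.600 were expected (exact 95% Poisson interval of the count 1.62 to 11.7). Tyrobp and Fcer1g shared 11 cells where 0.602 were expected (5.49 to 19.7), and Klrb1c and Fcer1g shared 13 where 0.994 were expected (6.92 to 22.2). Cx3cr1 and Fcer1g shared 2 cells, against 1.89 expected (0.242 to 7.22). Matching cells on depth within a library as well moved these expectations to 0.788, 1.01, 1.32 and 2.01 cells.

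In the GENCODE M21 annotation of GRCm38 the entry genes lie apart. Klrb1c spans chr6:128778485-128789215 on the minus strand, within the NK gene complex that also holds Klrd1 (chr6:129591782-129598775, plus strand) and Klra7 (chr6:130218605-130233322, minus strand). Tyrobp lies at chr7:30413760-30417585 on the plus strand, Fcer1g at chr1:171229572-171234365 on the minus strand and Cx3cr1 at chr9:119901616-120069879 on the minus strand. All are protein-coding.

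Because Fcer1g and Klrb1c were found in the same cells, the 200 bases before the RefSeq start of each are shown for comparison (GRCm38.p6, 5′ to 3′ on the gene's strand, chr1:171234350-171234549 and chr6:128788642-128788841, both minus strand). The end of the Fcer1g stretch falls in the first exon of a longer GENCODE transcript, and the Klrb1c stretch lies in an intron of a GENCODE transcript that starts further upstream. Capitals mark TGTGGT (RUNX) or AGGAAG (ETS), read on both strands, and in Klrb1c a pair of AGGAAG matches overlaps. Of 32851 promoters of the same length, 11.2% held TGTGGT, 24.7% held AGGAAG and 9.85% held TCACAC (T-box), which neither stretch holds. Fcer1g has 1 AGGAAG match, and Klrb1c has 3 with 1 TGTGGT match. These are matches of letters only. No entry for Tyrobp was in the table used.
Fcer1g: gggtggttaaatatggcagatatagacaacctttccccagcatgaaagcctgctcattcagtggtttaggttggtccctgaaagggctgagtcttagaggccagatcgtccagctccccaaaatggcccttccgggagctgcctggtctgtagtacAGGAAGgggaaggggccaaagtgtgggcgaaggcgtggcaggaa
Klrb1c: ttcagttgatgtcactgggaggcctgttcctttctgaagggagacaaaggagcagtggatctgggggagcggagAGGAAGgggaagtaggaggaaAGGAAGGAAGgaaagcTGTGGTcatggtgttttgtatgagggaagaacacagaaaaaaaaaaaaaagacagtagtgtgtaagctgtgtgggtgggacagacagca

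The selected cells were spread unevenly over the libraries. They made up 1.93% of CD8+ cells in library 1 (12 of 622, exact 95% interval 1.0 to 3.35), 0.113% in library 2 (1 of 886, 0.00286 to 0.627) and 2.24% in library 3 (9 of 402, 1.03 to 4.21). In libraries 4, 5 and 6 they made up 3.87% (32 of 827, 2.66 to 5.42), 3.68% (32 of 869, 2.53 to 5.16) and 2.81% (25 of 891, 1.82 to 4.11). Library 2 stood below all the others, and its interval met none of theirs. Among the other 5 libraries neighboring intervals overlapped. Intervals here and below cover counting error only.

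Depth differed between libraries, with a median of 884.5 UMIs per CD8+ cell in library 3 and 2774 in library 4, and a gene seen as a single UMI is found more often in a deep cell. After every cell was thinned to 1000 UMIs, with the gate drawn again on the thinned counts and 4705 of all cells left out as shallower, the share over all libraries was 1.91% (58 of 3041) in place of 2.47%. The thinned shares were 1.78, 0.172, 2.01, 2.33, 2.94 and 2.03% in libraries 1 to 6. Library 2 was again lowest, but its interval (0.00434 to 0.952) then overlapped those of library 1 (0.717 to 3.63) and library 3 (0.417 to 5.77), and at 500 UMIs libraries 1 and 2 both had no selected cell. For comparison, the same gene rule was met by 7 of 1205 CD4+ conventional T (Tconv) cells, or 0.581% (0.234 to 1.19). Tconv cells had a median of 1622 UMIs against 1708 in the CD8+ gate. Whether such UMIs in Tconv cells are background was not tested. By gene, 0.249% of Tconv cells held Tyrobp, 0.249% Klrb1c and 0.747% Cx3cr1, whereas 0.756% (0.524 to 1.05), 1.31% (1.0 to 1.69) and 2.51% (2.08 to 3.01) of all CD8+ cells did. The Klrb1c and Cx3cr1 intervals lay above those of Tconv cells (0.0514 to 0.726 and 0.342 to 1.41), while for Tyrobp they overlapped (0.0514 to 0.726). By its share alone, Tyrobp in CD8+ cells was not set apart from Tyrobp in Tconv cells.

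**Figure D1:**
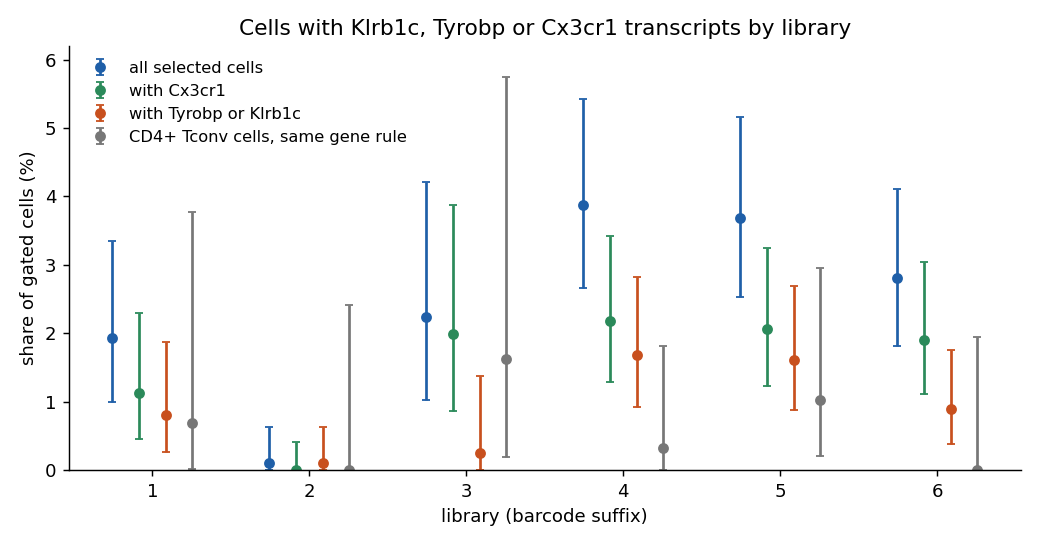
Share of gated cells (%, y axis) in each of the 6 libraries (x axis), with exact 95% binomial intervals, for all selected CD8+ cells, those with Cx3cr1, those with Tyrobp or Klrb1c, and CD4+ Tconv cells that met the same gene rule. Library 2 has 1 selected cell of 886, and libraries 4 and 5 have the highest shares (3.87% and 3.68%).

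The rule kept only a part of the CD8+ cells with these genes. Of 59 CD8+ cells with Klrb1c, 24 were kept and 35 were set aside for Pdcd1, Mki67 or Top2a. Klrb1c was found in 2.95% (2.06 to 4.08) of cells with one of those genes and in 0.725% (0.465 to 1.08) of cells without them, at median depths of 2978.5 and 1472 UMIs. Thinned to 1000 UMIs the shares were 1.71% (9 of 526, 0.785 to 3.22) and 0.318% (8 of 2515, 0.137 to 0.626), so the order over all libraries held at equal depth. It was not the same in every library. Library 5 held 32 of the 59 cells, and there the thinned shares were 1.10% (2 of 181) and 1.20% (6 of 499), while in libraries 1, 4 and 6 they were 2.44 and 0.283%, 2.90 and 0%, and 1.53 and 0.218%, on 1 to 4 cells each. For Cx3cr1 the shares were 3.79 and 2.05% unthinned, and thinned they were 1.90% (0.915 to 3.47) and 1.55% (1.10 to 2.11), with overlapping intervals. For Tyrobp the shares were 1.10% (13 of 1186) and 0.634% (21 of 3311) unthinned. Thinned, the order turned, with 0 of 526 cells (0 to 0.699%) and 11 of 2515 cells (0.437%, 0.219 to 0.781), and the intervals overlapped.

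The cells were T cells by their transcripts. A UMI of Cd3d, Cd3e or Cd3g, the invariant chains of the T cell receptor complex, was found in 108 of 111 (97.3%), against 95.7% of other CD8+ cells. CD3 or receptor constant-chain UMIs were found in 110. Of the NK-defining genes Ncr1, Klra8, Klre1 and Eomes, 18 of 111 cells held at least 1 (16.2%, 9.90 to 24.4), where 13.6 were expected at equal depth from CD8+ cells without the rule genes. Eomes, which CD8+ T cells also express, was found in 10 cells and Klre1 in 8, while Ncr1 had 1 UMI and Klra8 none. Zbtb16 and Trdc, which mark NKT and γδ T cells, had none. The innate-like T cell list had 4 UMIs in all, with 10 of its 12 measured genes at 0. All 4 lay in 3 of the 43 cells with Tyrobp or Klrb1c (6.98%, 1.46 to 19.1), against 2.99% of other CD8+ cells. The 68 cells with Cx3cr1 held none. Of markers of other cell types, 9 myeloid genes gave 1.67 UMIs per 10000 in the selected cells (1.22 to 5.32 in libraries with at least 5 cells) and 1.46 in other CD8+ cells (0.763 to 1.91), with 4 of the 9 at 0. The 5 B cell genes measured gave 0.726 and 0.974 UMIs per 10000, and 4 dendritic genes gave 1 UMI in all. The melanocyte genes Pmel, Mlana, Dct and Tyrp1 gave 3 UMIs in 2 of the selected cells, both with Cx3cr1, and 3 UMIs in 3 of the 4386 other CD8+ cells. The part of such cells in the results was not tested by a doublet caller. Since Tyrobp, Fcer1g and Cx3cr1 are also abundant in macrophages, the cells were counted again without any that held a UMI of a defining myeloid, dendritic, B cell, melanocyte or stromal gene, which left 99 of 111. Such a UMI was held by 10 of the 68 cells with Cx3cr1 (14.7%, 7.28 to 25.4), where 3.71 were expected at equal depth, and by 2 of the 43 with Tyrobp or Klrb1c, where 2.86 were expected. Without these cells the ratios of the cells with Cx3cr1 to the resting comparison cells, described further on, were 2.43 for Klrg1, 2.21 for Itga4, 1.77 for Ccl5 and 0.491 for Il7r. Fcer1g in the cells with Tyrobp or Klrb1c then had 28 UMIs where 1.02 were expected, a ratio of 27.5, against 32.0 before.

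The selected cells were deeper than the cells they were compared with, at a median of 2128 UMIs against 1701.5 in the other CD8+ cells and 1460 in the resting comparison cells defined further on. Against the other CD8+ cells of the same library the selected cells differed little outside the genes that chose them. For each gene the UMIs found were divided by the number expected from that gene's share of UMIs in the comparison cells of each library, summed over libraries. Of 3169 genes with at least 20 UMIs found and expected together, 14 (0.442%) were at least 2-fold higher and 37 (1.17%) at least 2-fold lower, the rule genes left out. The low side was led by genes of DNA replication and division, which the absence of Mki67 and Top2a selects against: Rrm2, the small subunit of ribonucleotide reductase, had 2 UMIs where 20.1 were expected, Ube2c, an enzyme of mitotic exit, 9 against 40.0, and Birc5, which encodes survivin, 11 against 34.3. In the cell cycle list 5 of 16 tested genes were at least 2-fold lower and none higher, with a median log2 ratio of -0.81 against 0.01 over all tested genes. These values describe the rule. Without library 4, 27 genes were past 2-fold in place of 51.

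Outside the rule genes, Fcer1g had the highest ratio of the tested genes. Its 37 UMIs compared with 2.78 expected, a 13.3-fold ratio (exact 95% interval 8.76 to 19.9), and the direction was the same in all 4 libraries that held 10 or more selected cells. Its UMIs in the selected cells numbered 5, 2, 3, 13, 6 and 8 in libraries 1 to 6 and came from 13 cells. In the other CD8+ cells 41 of 4386 cells held it. Nrgn, which encodes the calmodulin-binding protein neurogranin, was at 3.31-fold (26 against 7.86, 2.12 to 4.96), in 7 cells and higher in 3 of the 4 libraries. It was singled out after its values were seen, and most of its UMIs came from a few cells of library 6, as given further on. Among genes with the same direction in all 4, those after Fcer1g were near the threshold: Limk2, a kinase that acts on actin turnover, at 2.47-fold (16 against 6.48), Rtp4, an interferon-induced gene, at 2.34-fold (25 against 10.7) and Vamp4, a vesicle fusion protein, at 2.23-fold (18 against 8.09). Tcf3, which encodes the E proteins E12 and E47, was at 2.07-fold (29 against 14). Fcer1g, Nrgn, Limk2 and Vamp4 reached the minimum of 20 UMIs only through their own high count in the selected cells, so genes as rare that were not high there were not ranked.

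The NK receptor list held 26 genes in the table, of which 8 passed the UMI minimum, and 18 were too rare to judge. None of the 8 was past 2-fold in either direction, where 0.442% of all tested genes were higher and 1.17% lower. The median log2 ratio was 0.31 against 0.01 over all tested genes. It was not steady: without library 2, which held 1 selected cell, 7 genes were tested and the median was 0.17. Leaving out each library in turn gave 0.15 to 0.24, always below 0.31. Klrd1, the CD94 chain that pairs with NKG2 receptors, had the tightest value at 1.37-fold (242 UMIs against 177, 1.20 to 1.56). Slamf7, a homophilic receptor of the SLAM family, was at 1.38-fold (47 against 34.0). Klrc1, the inhibitory NKG2A partner of CD94, was at 1.13-fold (0.942 to 1.34) and Klrk1, which encodes NKG2D, at 1.09-fold (0.815 to 1.43), so neither was set apart from the other CD8+ cells. Cd160, a receptor for HVEM, was the only tested member with a ratio below 1, at 0.644 (0.380 to 1.02).

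Among the adaptors, Fcer1g was the single gene past 2-fold of 10 tested, against 0.442% of all tested genes higher and 1.17% lower. Hcst, the DAP10 adaptor of NKG2D, was at 1.14-fold with 361 UMIs, and Cd247, Zap70 and Lat, which serve the T cell receptor, had intervals that included 1. The median log2 ratio of the list was 0.06.

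**Figure D2:**
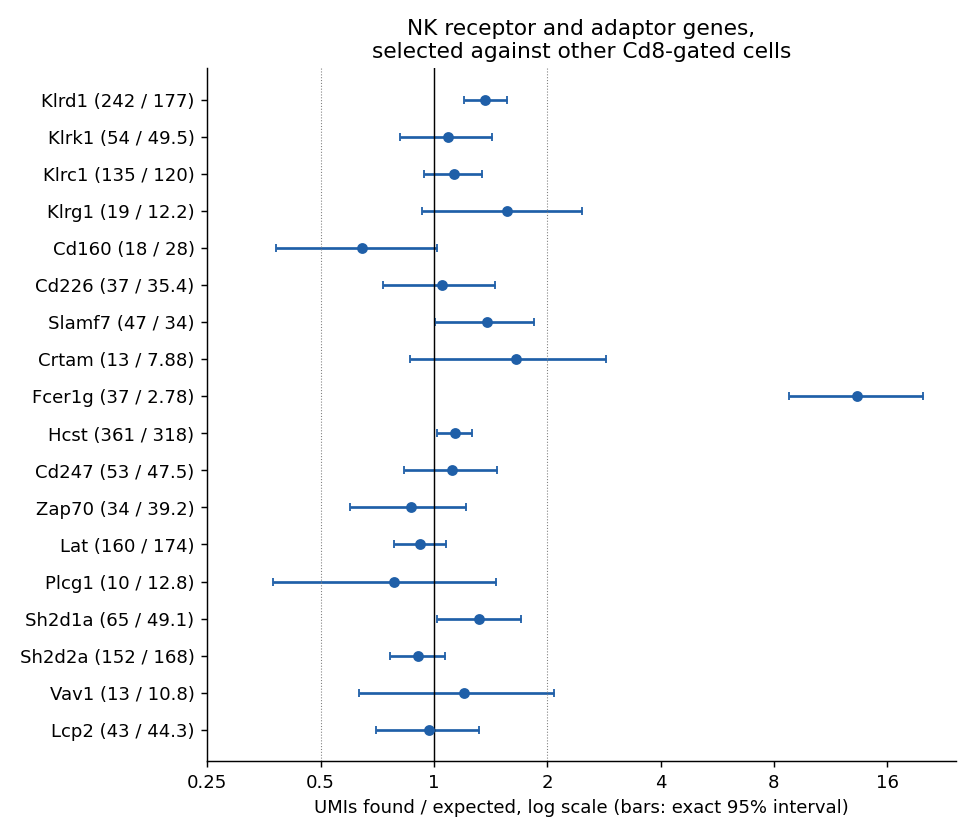
UMIs found over UMIs expected (x axis, log scale, bars are exact 95% intervals) for each tested NK receptor and adaptor gene in the 111 selected cells against the other CD8+ cells of the same library, with the 2 counts in brackets. Fcer1g is at 13.3, and every other gene shown lies between 0.644 and 1.65.

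A closer comparison was made with the 3200 CD8+ cells that also lacked Pdcd1, Mki67 and Top2a but held none of the 3 entry genes, called resting comparison cells here. Of 3088 tested genes, 17 (0.551%) were at least 2-fold higher and 9 (0.291%) at least 2-fold lower. Fcer1g remained on top at 16.4-fold (37 against 2.26, 10.0 to 26.9). None of 12 tested cytotoxic genes and none of 12 tested naive and memory genes was past 2-fold. The median log2 ratios were 0.10 and -0.25, against 0.06 over all tested genes. For the NK receptor list the median was 0.15 on 7 tested genes, with none past 2-fold.

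Granzyme A was the main cytotoxic gene on the high side. Gzma, a serine protease of the cytotoxic granule, had 1055 UMIs where 674 were expected, or 1.57-fold (1.47 to 1.67). That interval takes UMIs as independent, although Gzma, Gzmb, Gzmk and Prf1 together had up to 70 UMIs in 1 selected cell. By library the selected cells held 0.349, 0, 3.99, 49.7, 50.5 and 30.3 Gzma UMIs per 10000 in libraries 1 to 6, and the resting comparison cells 0.835, 0.0721, 1.37, 30.7, 31.6 and 22.3. The gene was low in both populations in libraries 1 to 3 and high in both in libraries 4 to 6, where the selected cells were above the comparison cells each time. Gzmb was at 1.02-fold (0.900 to 1.16) and Gzmk had 74 UMIs against 70.8, while Gzmm reached 1.81-fold on 18 UMIs (1.05 to 2.95). Nkg7, a granule membrane protein, was at 1.13-fold.

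Ccl5, a chemokine that memory CD8+ T cells store as transcript, had 4716 UMIs where 3412.2 were expected, or 1.38-fold (1.34 to 1.42), and was found in 108 of 111 cells (97.3%) where 87.5 were expected. In libraries 1 to 6 the selected cells held 151, 15.1, 216, 155, 161 and 220 Ccl5 UMIs per 10000 and the resting comparison cells 120, 10.7, 108, 124, 124 and 134, so the value was higher in each of the 6, although library 2 had a single selected cell. Xcl1, which attracts cross-presenting dendritic cells, was at 1.94-fold with 67 UMIs, but these lay in 16 cells. Tnf was on the low side, with 12 UMIs against 24.6 (0.25 to 0.860) and lower in 4 of 4 libraries. Ifng was at 1.19-fold (174 against 146, 1.02 to 1.39).

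Of the 12 tested genes of the naive and memory list, 8 had a ratio below 1. The share of all tested genes below 1 was not counted, and the median log2 ratio over all tested genes was 0.06. Cd27, a costimulatory receptor, had 12 UMIs against 24.0, Satb1, a chromatin organizer of naive T cells, 30 against 52.9, Klf2, a transcription factor of quiescent T cells, 94 against 132, and Il7r, the IL-7 receptor chain, 57 against 79.9. Each interval lay below 1, where 97 of all 3088 tested genes had such an interval. Ccr7, the lymph node chemokine receptor, had the highest ratio of the list, with 38 UMIs against 27.6. Lef1, a transcription factor of naive and memory cells, had 37 UMIs against 36.0. Of the checkpoint list none of 11 tested genes was past 2-fold, against 0.551% of all tested genes higher and 0.291% lower. Nr4a2, a transcription factor induced by receptor signaling, was highest at 1.74-fold (54 against 31.1) and Ctla4 was at 1.37-fold (61 against 44.4), whereas Icos was lowest at 0.70-fold on 75 UMIs.

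Gzma, Gzmb, Gzmk or Prf1 was held by 91 of 111 selected cells (82.0%, 73.6 to 88.6). At equal depth within each library, 72.3% were expected from the other CD8+ cells, just below that interval, and 69.2% from the resting comparison cells. When those 91 were set against the 1337 resting comparison cells of the same libraries with one of the same genes, a comparison added after the data were seen, Ccl5 was at 1.23-fold (1.19 to 1.27), Gzma at 1.35-fold (1.27 to 1.44) and Klrd1 at 1.15-fold (0.992 to 1.32). Fcer1g was at 12.8-fold (7.58 to 21.7). In that comparison 17 of 2750 tested genes (0.618%) were at least 2-fold higher and 16 (0.582%) at least 2-fold lower.

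The cells with Tyrobp or Klrb1c and the cells with Cx3cr1 differed in these genes. This split was made after the data were seen. Median depth was 2254 UMIs in the former and 1992 in the latter. Each was set against the resting comparison cells of its libraries. For the 43 cells with Tyrobp or Klrb1c, 13 of 1391 tested genes (0.935%) were at least 2-fold higher and 5 (0.359%) lower, and for the 68 cells with Cx3cr1, 15 of 1905 (0.787%) were higher and 8 (0.420%) lower.

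Fcer1g was on the side of the former. It was found in 12 of the 43 cells with Tyrobp or Klrb1c (27.9%, 15.3 to 43.7), where 0.447 were expected from the resting comparison cells and 0.606 at equal depth, and in 1 of the 68 cells with Cx3cr1 (1.47%, 0.0372 to 7.92). In libraries 1 to 6 the cells with Tyrobp or Klrb1c held 5, 2, 3, 13, 6 and 2 Fcer1g UMIs, at least 1 UMI in each library. The 43 cells numbered 5, 1, 1, 14, 14 and 8 in these libraries, and only 12 of the 43 held the gene. The single cell with Cx3cr1 was in library 6 and held 6 UMIs. Of the entry genes, 8 of 21 cells with Tyrobp and 6 of 24 with Klrb1c held Fcer1g, 2 of them holding both.

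Ly49 receptors, encoded by the Klra genes, bind class I molecules and are nearly identical in sequence, so the counts of single members are uncertain. UMIs of any Klra gene were found in 4 of the 43 cells with Tyrobp or Klrb1c (9.30%, 2.59 to 22.1), where 0.724 were expected at equal depth. Only 1 of the 68 cells with Cx3cr1 held one. Klra7 gave 9 UMIs in 3 cells and Klra1 gave 4 UMIs in 3 cells. Both genes lie under the UMI minimum, and the values rest on few cells.

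**Figure D3:**
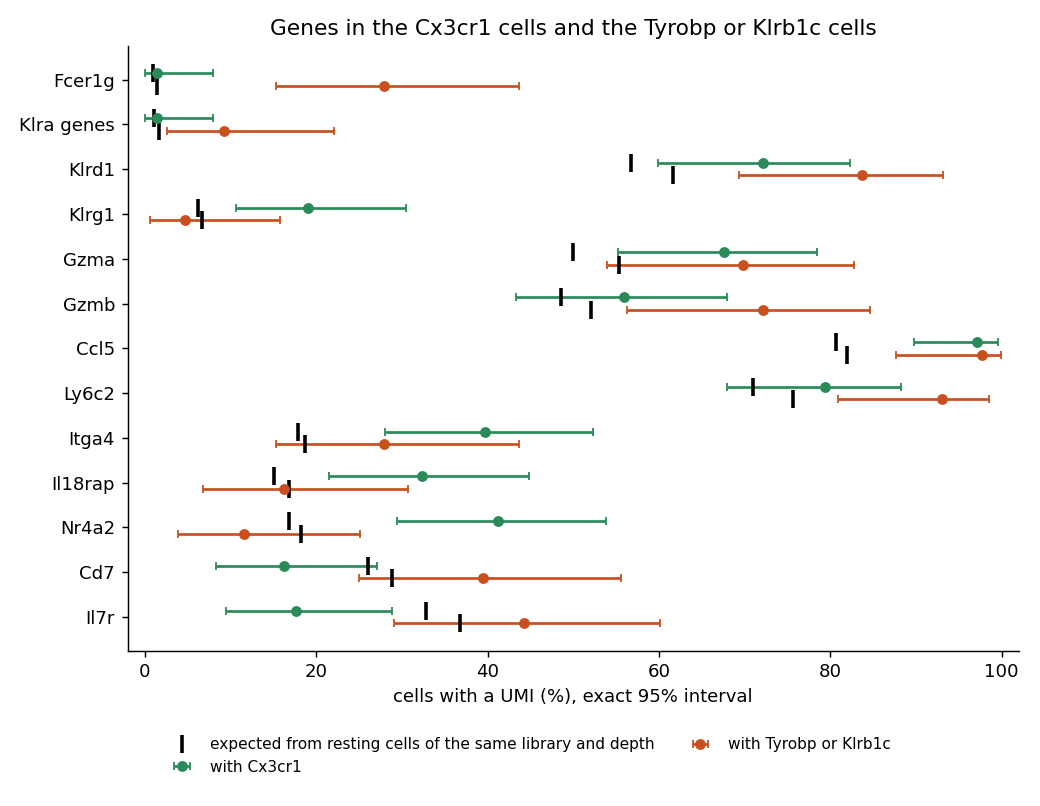
Share of cells with at least 1 UMI of a gene (x axis, %, exact 95% intervals) in the 68 cells with Cx3cr1 and the 43 cells with Tyrobp or Klrb1c, with a tick at the share expected from resting comparison cells of the same library and depth quartile. Fcer1g is at 27.9% in the cells with Tyrobp or Klrb1c and 1.47% in the cells with Cx3cr1, and Klrg1 and Nr4a2 show the opposite order.

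Other genes on the high side of the cells with Tyrobp or Klrb1c were Ikzf2, which encodes Helios, at 2.92-fold (16 UMIs against 5.47 in 7 cells, with the same direction in libraries 1, 4, 5 and 6), and Ly6c2, a surface glycoprotein of activated and memory CD8+ cells, at 1.54-fold (347 against 225). Ly6c2 was found in 40 of 43 cells (93.0%), where 32.5 were expected at equal depth. Gzma was at 1.88-fold (530 against 282, 1.72 to 2.05), and higher in 3 of 4 libraries. Ccl5 was at 1.09-fold (1.04 to 1.15), with 66.4, 104, 168 and 274 UMIs per 10000 in libraries 1, 4, 5 and 6 against 120, 124, 124 and 134, and without library 6 the ratio was 0.922. It thus changed direction between libraries. Nfil3, a transcription factor needed for NK cell development, was at 2.05-fold on 15 UMIs, and Socs3, a brake on cytokine signaling, at 2.24-fold on 18, of which 10 were in 1 cell. Like Fcer1g, the genes Ikzf2, Nfil3 and Socs3 reached the UMI minimum only through their own high counts in these cells. Genes as rare that were not high were not ranked. On the low side were Rora, a nuclear receptor of innate lymphoid cells (7 against 16.8), and Mrpl58 (4 against 16.5).

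In the cells with Cx3cr1 other genes were above the resting comparison cells. Klrg1, an inhibitory receptor of terminal effector cells, was at 2.67-fold (17 UMIs against 6.37, 1.52 to 4.41) and was found in 13 of 68 cells (19.1%, 10.6 to 30.5), where 4.2 were expected at equal depth. Klrg1 reached the UMI minimum only through its own high count here, so genes as rare that were not high were not ranked. In the cells with Tyrobp or Klrb1c it was found in 2 of 43. Over all 4497 CD8+ cells, Klrg1 shared 19 cells with Cx3cr1 where 9.49 were expected (11.4 to 29.7), 10 with Klrb1c where 5.52 were expected (4.80 to 18.4) and 5 with Tyrobp where 2.86 were expected (1.62 to 11.7), and the difference between these was not tested. Itga4, the α4 integrin, was at 2.11-fold (39 against 18.5) and found in 27 cells where 12.2 were expected, higher in 5 of 5 libraries. Set directly against the cells with Tyrobp or Klrb1c its ratio was 1.59, with an interval that included 1 (0.879 to 3.0). Il18rap, a chain of the IL-18 receptor, was at 2.01-fold and found in 22 cells where 10.3 were expected. Its UMIs were 0, 0, 15, 8 and 3 in libraries 1, 3, 4, 5 and 6.

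Nr4a2 was found in 28 of the 68 cells with Cx3cr1 (41.2%, 29.4 to 53.8), where 11.5 were expected at equal depth, and in 5 of 43 cells with Tyrobp or Klrb1c. Its UMIs in the cells with Cx3cr1 were 1, 4, 15, 11 and 10 in libraries 1, 3, 4, 5 and 6, or 0.797, 3.09, 3.24, 2.12 and 2.70 per 10000. The resting comparison cells of these libraries held 1.22, 1.37, 1.27, 0.974 and 0.998 per 10000, so library 1 was the exception. Ccl5 was at 1.59-fold (3177 against 2002.2, 1.53 to 1.64) and higher in 5 of 5 libraries, and Gzma was at 1.34-fold but higher in 3 of 5. Stmn1 and Cks1b, genes of dividing cells, were at 2.14-fold and 2.32-fold in 6 and 8 cells, with Mki67 and Top2a absent by selection. Both reached the UMI minimum only through their own high counts in these cells. The cell cycle list gave 576 UMIs where 367 were expected, with up to 57 in a single cell. Of its 20 genes 6 were tested, and all 6 had a ratio above 1. Their median log2 ratio was 0.53, against 0.07 over all tested genes, whose share above 1 was not counted. Stmn1 was the 1 gene at least 2-fold higher, against 0.787% of all tested genes. A gene as rare as Stmn1 is tested only when it is high, so these counts lean to the high side. In the cells with Tyrobp or Klrb1c the list gave 197 UMIs where 240 were expected.

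Single genes of the naive and memory list were lower in the cells with Cx3cr1. Il7r was at 0.420 (19 UMIs against 45.3, 0.252 to 0.658) and found in 12 of 68 cells (17.6%, 9.47 to 28.8), where 22.3 were expected at equal depth. Its UMIs per 10000 in libraries 1, 3, 4, 5 and 6 were 0, 1.54, 2.59, 0.385 and 0.809, against 3.24, 2.51, 3.28, 3.06 and 1.86 in the resting comparison cells, lower in all 5. Satb1 was at 0.366 (11 against 30.0). Of 8 tested genes of the list these 2 were at least 2-fold lower and none was higher, where 0.420% of all tested genes were lower. In the cells with Tyrobp or Klrb1c, Il7r had 38 UMIs against 34.6.

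Set directly against each other within libraries, the cells with Cx3cr1 and those with Tyrobp or Klrb1c had 116 genes at least 2-fold higher (5.94%) and 108 lower (5.53%) of 1954, with 42 cells on the second side, since library 2 held no cell with Cx3cr1. Expected counts drawn from 42 cells are uncertain themselves. Their part in these shares was not tested, so the shares cannot be set beside those of the other comparisons. Cd7, a T and NK cell surface protein, had 13 UMIs in the cells with Cx3cr1 against 56.2 expected from the others, a ratio of 0.232 (0.113 to 0.444), and was lower in 5 of 5 libraries. Il7r was at 0.333 (0.181 to 0.592) and Gzma at 0.688 (0.609 to 0.778). Klrg1 was at 5.27-fold (1.25 to 47.0) and Il18rap at 3.78-fold (1.66 to 9.66), each higher in 3 of 4 libraries. In the cells with Tyrobp or Klrb1c these genes had only 2 and 8 UMIs. Both reached the UMI minimum only through their high counts in the cells with Cx3cr1. For Klrd1 (0.908, 0.698 to 1.19), Gzmb (0.994, 0.777 to 1.27) and Klrc1 (0.853, 0.600 to 1.22) the intervals included 1.

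**Figure D4:**
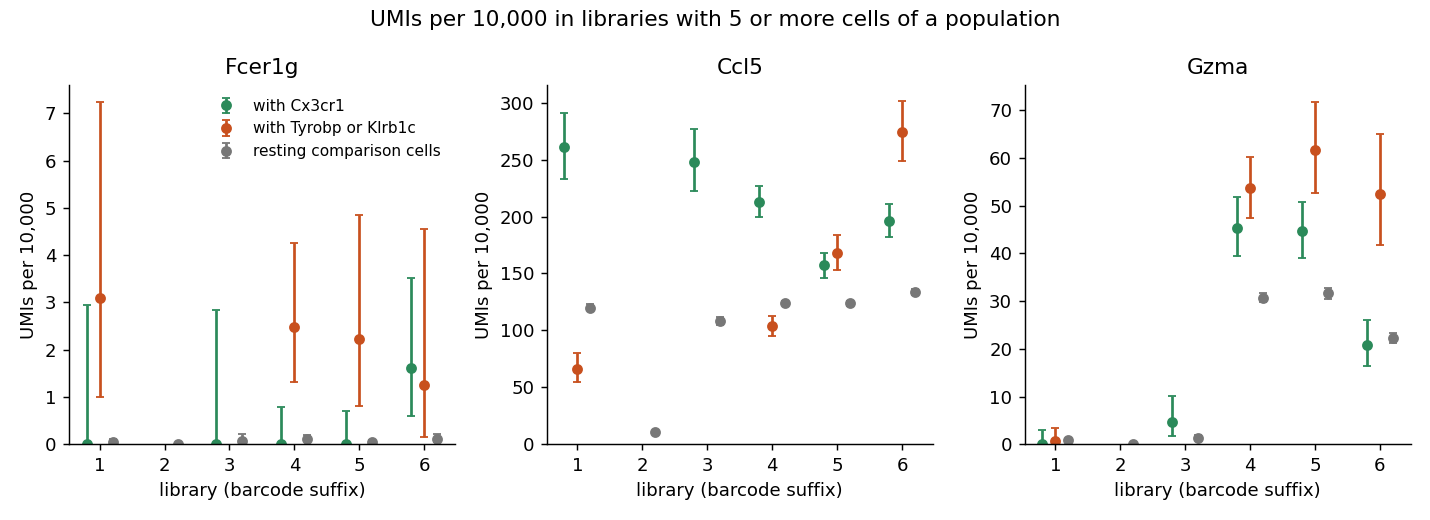
UMIs per 10000 (y axes, exact 95% Poisson intervals) of Fcer1g, Ccl5 and Gzma by library (x axes) in the cells with Cx3cr1, the cells with Tyrobp or Klrb1c and the resting comparison cells, for populations of at least 5 cells in a library. Fcer1g is above the comparison cells in every library shown for the cells with Tyrobp or Klrb1c, Ccl5 is above them in every library shown for the cells with Cx3cr1, and Gzma separates libraries 4 to 6 from 1 to 3 in all populations.

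Nrgn, which encodes the calmodulin-binding protein neurogranin, had the largest ratio in the cells with Cx3cr1 at 9.52-fold (25 UMIs against 2.63), but 21 of its UMIs came from 3 cells of library 6, and without that library the ratio was 2.29 with 0.594 to 6.39. Nrgn too reached the UMI minimum only through its own high count. Ccr8, a chemokine receptor better known from Treg cells, gave 10 UMIs in 7 of the cells with Cx3cr1 where 1.87 UMIs were expected. It was singled out after its values were seen and lies under the UMI minimum.

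Among 458 genes found in at least 20 CD8+ cells with Tyrobp, genes were ranked by shared cells over expected cells. The highest were Dut (20 cells against 9.92 expected), Tpm4 (21 against 10.5) and Sf3b2 (22 against 11). They are genes of nucleotide, actin and splicing biology, at ratios near 2. The 10 highest ratios ran from 1.72 to 2.02. These ratios cover all 34 CD8+ cells with Tyrobp among the 4497 CD8+ cells, whose median depth was 1708 UMIs. The 21 selected cells with Tyrobp are only a part of them. Their median depth was 3111 UMIs, against 1472 in CD8+ cells without Pdcd1, Mki67 and Top2a. The part of depth in these ratios was not tested. Fcer1g, with 11 shared cells, did not reach the minimum. For Cx3cr1 the list included Nr4a2 (48 cells against 23.1) and Rtp4 (21 against 9.71), over all CD8+ cells whether cycling or not.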

How the data were processed

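Single-cell libraries were made with a 10x 5′ kit, and per the labels the authors used Cell Ranger and Seurat. The submitters' processing notes name mm9 and the study's methods mm10, so no coordinate was read from the files. The deposited table holds UMI counts, not normalized, for 14597 genes in 12818 cells (201 to 2494 genes and at most 4.94% mitochondrial UMIs per cell; 1916305 to 5127776 UMIs per library). The table covers 6 libraries, and 0 of its columns names a PBS or DTx sample. Libraries are not treated as replicates. The libraries differed beyond sampling noise, and 76 barcodes recurred across them, 1 of them in a selected cell.

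Members and gene lists were chosen with earlier results of these data known. Splitting them by entry gene, the comparison among cells with cytotoxic genes, the depth-matched co-detection and the expected shares of cells with a gene of a list were added after seeing the data. Ratios were computed in Python 3 (numpy, scipy, pandas), with a pseudocount of 0.5 on the log2 scale, a minimum of 20 UMIs found plus expected, and exact 95% intervals (Clopper-Pearson for shares, conditional binomial for ratios). Intervals of ratios take UMIs as independent and can be too narrow where many UMIs of a gene lie in 1 cell. Cells with a UMI are given beside some ratios only, and UMIs per 10000 for some genes. Named genes are the 15 highest and 10 lowest ratios whose interval excludes 1, without rule genes and T cell receptor segments. Their direction holds in every library with at least 10 cells (5 for the entry-gene groups). Genes of the lists were added. Nrgn against the other CD8+ cells, Ccr8 and the receptor segments were singled out after their values were seen. Expected cells at equal depth use 4 depth quartiles per library. No doublet caller was run. The ratio formula, written out again with a correction that the reported ratios do not use, was run on simulated counts. The intervals and the direction counts were not tested in this way. Symbols were matched to GENCODE M21 and RefSeq. Values of 1 gene of the lists are not reported here.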

Additional observations from a re-analysis of the deposited data

How the results depend on the processing

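No paired analysis was possible because the libraries carry no sample or replicate number. Without each library in turn, the share of CD8+ cells selected ranged from 2.15 (without library 4) to 3.05% (without library 2), the genes past 2-fold against other CD8+ cells from 27 (without library 4) to 57, and those against resting comparison cells from 23 to 38. The list medians (log2) ranged from 0.15 to 0.24 for NK receptors, -0.05 to 0.03 for the cytotoxic list, -0.22 to -0.03 for the naive and memory list and -0.32 to -0.13 for checkpoints. With at least 2 UMIs over the 3 entry genes, 17 cells were left (0.378%), with 11 genes past 2-fold of 460 and 8 of 455. The share was 1.25% after thinning to 500 UMIs and 1.91% after thinning to 1000. With libraries pooled, 60 genes were past 2-fold against resting comparison cells, and the cytotoxic and the naive and memory medians were 0.14 and -0.42. A minimum of 10 UMIs gave 229 and 183 genes past 2-fold against the 2 comparison sets, and no minimum gave 2320 and 2231, against 51 and 26 in the values reported. The cause of these differences was not tested beyond the number of cells and genes each setting leaves. Fcer1g in the cells with Tyrobp or Klrb1c was at 22.6-fold within depth quartiles and 50.9-fold without library 4. Ccl5 in those cells changed direction without library 6 (0.922). The number of UMIs per cell limits every call, since most selected cells rest on 1 molecule.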

Other observations

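T cell receptor V segments were uneven between the cells. Trav5-4 was found in 7 of the 68 cells with Cx3cr1 (10.3%, exact 95% interval 4.24 to 20.1), where 1.13 were expected from the resting comparison cells of the same library, and Trbv26 in 6 where 1.59 were expected. Trbv12-2 gave 39 UMIs where 16.8 were expected, but 15 came from 1 cell, and it was found in 10 cells where 6.32 were expected. Trbv20 was found in 5 of the 43 cells with Tyrobp or Klrb1c (11.6%, 3.89 to 25.1), where 1.14 were expected. Segments of one family share sequence, so single segments are uncertain, and these were singled out after their values were seen.

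T cells with no UMI of Cd4, Cd8a, Cd8b1 and Foxp3 also held NK genes. Among 104 such cells with Tyrobp or Klrb1c, 60 held Fcer1g (57.7%, 47.6 to 67.3) and 43 held a Klra gene (41.3%, 31.8 to 51.4), at a median of 1431.5 UMIs. Among the 43 selected CD8+ cells with Tyrobp or Klrb1c, 27.9% held Fcer1g and 9.30% a Klra gene, at a median of 2254 UMIs, and both intervals lay below. Cd3d, Cd3e or Cd3g was found in 93 of the 104 cells (89.4%) and Ncr1 in 7.

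In the CD8+ cells with Cx3cr1, Irf7 was found in 18 of 68 (26.5%, 16.5 to 38.6), where 9.03 were expected at equal depth, although its 19 UMIs compared with 12.1 expected (0.935 to 2.49). Rtp4 was found in 13 where 4.93 were expected, and in 8 of the 43 cells with Tyrobp or Klrb1c where 3.61 were expected. A gene of the interferon list was held by 59 of the 68 cells with Cx3cr1 (86.8%, 76.4 to 93.8), where 52.8 were expected at equal depth, and by 31 of the 43 cells with Tyrobp or Klrb1c, where 34.6 were expected. Its UMIs were uneven, with 46 of the 323 in the cells with Cx3cr1 lying in 1 cell.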
